A study of Mus musculus with 200 samples.

Results

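In this series, 9 genes that mark the epithelium of the choroid plexus were followed through bulk RNA sequencing of the mouse brain after a single mild closed-head injury (CHI). The members were *Ttr*, *Folr1*, *Kl*, *Clic6*, *Otx2*, *Slc4a5*, *Prlr*, *Sostdc1* and *Tmem72*, taken as the rows of the gene count table that carry these names, and all 9 were found among the 56941 genes listed. The choroid plexus is a vascular tissue folded into the brain ventricles, whose epithelium secretes most of the cerebrospinal fluid and forms the barrier between blood and that fluid. It makes up a small part of the brain and is attached to the ventricular wall along narrow lines. Its epithelial cells move bicarbonate, chloride, sodium and water across their apical membrane, carry folate and thyroid hormone into the fluid, and secrete growth factors and their antagonists.

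The tables hold 200 mice, one hemisphere each, of which 67 underwent sham surgery and all others CHI. For CHI, an impactor struck the intact skull once under isoflurane, and sham mice had the anaesthesia and the scalp incision with no impact. Mice were perfused with PBS and collected 9, 24 or 72 h later (68, 65 and 67 mice). The strain label was C57BL/6J for 61 mice, IL-1R1 eRestore for 50, IL-1R1 nRestore for 34 and IL-1R1 gKO for 55. The methods read here describe the C57BL/6J mice alone, and no source used here gives the promoter, the cell type or the alleles behind the other labels, which are used below as names. C57BL/6J groups held 15, 14 and 14 CHI mice at 9, 24 and 72 h and 6 sham mice at each time. IL-1R1 gKO groups held 13, 12 and 12 CHI mice and 6 sham mice at each time. IL-1R1 eRestore groups held 12, 9 and 12 CHI mice and 6, 5 and 6 sham mice. IL-1R1 nRestore groups held 6, 8 and 6 CHI mice and 4, 5 and 5 sham mice, all male at 72 h. Ages lay between 3.3 and 7.67 months, and 102 mice were female. The labels spread the mice over 8 experiments, and the 3 experiments with mice at 9 h held none at 24 or 72 h. Surgery was done in the morning, so mice at 9 h were also collected at another time of day than the later mice.

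Total estimated counts ranged from 14857985 to 57355676 per mouse (median 20258936). *Il1r1*, the interleukin-1 receptor gene that the 3 IL-1R1 labels name, had a median of 5.14 CPM (counts scaled to the library total) in C57BL/6J mice, 7.55 in eRestore, 10.2 in gKO and 9.49 in nRestore mice. It was not lower in the mice labelled IL-1R1 gKO, and a count over the whole gene does not show which part of it was altered. Neurons, glia and vessels were detected in each mouse: the 12 marker genes of these cells summed to 7767 to 11690 CPM, with none of the 12 at 0.

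Because *Otx2* encodes a homeodomain factor needed to form the choroid plexus and the members moved together from mouse to mouse, the sequence before their transcription starts was read. RefSeq windows on GRCm38.p6 were held for 5 members (*Kl*, *Otx2*, *Slc4a5*, *Prlr* and *Tmem72*), in 10 windows of 250 bases. Of these windows, 3 overlapped no exon annotated by GENCODE vM39 once placed by exact match in GRCm39, and these 3 are shown 5′ to 3′ on the strand of the gene, each ending at the base before a start. On GRCm38.p6 they lie at chr5:150952357-150952606 (plus strand, *Kl*), chr14:48667645-48667894 (minus strand, the most upstream *Otx2* start) and chr15:10293401-10293650 (plus strand, the most downstream *Prlr* start). The starts are those of RefSeq. The *Otx2* and *Prlr* windows lie inside the annotated genes, and whether transcription starts there in these mice was not tested.
Kl: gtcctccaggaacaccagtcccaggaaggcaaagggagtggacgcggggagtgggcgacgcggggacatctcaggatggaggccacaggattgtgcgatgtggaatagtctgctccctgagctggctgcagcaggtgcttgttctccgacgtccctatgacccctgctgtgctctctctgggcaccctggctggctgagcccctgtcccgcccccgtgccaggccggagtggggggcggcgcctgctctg
Otx2: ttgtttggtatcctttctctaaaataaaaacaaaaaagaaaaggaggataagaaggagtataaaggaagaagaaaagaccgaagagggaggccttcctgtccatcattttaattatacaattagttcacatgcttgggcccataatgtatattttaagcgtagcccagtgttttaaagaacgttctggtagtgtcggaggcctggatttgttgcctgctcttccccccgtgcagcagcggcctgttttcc
Prlr: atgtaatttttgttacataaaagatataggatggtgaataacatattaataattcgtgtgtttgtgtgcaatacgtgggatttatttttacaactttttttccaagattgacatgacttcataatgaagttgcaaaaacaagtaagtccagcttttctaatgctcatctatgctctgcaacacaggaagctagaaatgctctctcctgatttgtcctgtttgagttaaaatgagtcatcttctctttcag
The letters TAATCC, which OTX factors are known to bind, were searched on both strands, where the other strand reads GGATTA. No capitals appear above because none of the 3 windows holds them. They occurred in 1 of the 10 windows, 211 bases before another *Otx2* start, beside 6.25% of the 32851 windows of all genes. By gene, 1 of the 5 members had a match beside 7.21% of the 27025 genes in the table. These 5 members hold more windows per gene than the whole table, so the shares by gene are not quite alike. A match is a description of letters, and windows of *Ttr*, *Folr1*, *Clic6* and *Sostdc1* were not analysed here.

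Among proteins the epithelium secretes, *Ttr* (ENSMUSG00000061808, chromosome 18:20797253-20807467, plus strand) encodes transthyretin, the carrier of thyroxine in cerebrospinal fluid. *Sostdc1* (ENSMUSG00000036169, 12:36364137-36368451, plus strand) encodes an antagonist of BMP and Wnt ligands. *Kl* (ENSMUSG00000058488, 5:150876072-150917284, plus strand) encodes Klotho, a co-receptor of fibroblast growth factor 23 that is also shed. All positions are on GRCm39 and span the whole annotated gene.

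Among receptors and transporters, *Folr1* (ENSMUSG00000001827, 7:101507537-101520014, minus strand) encodes folate receptor alpha, which carries folate across the epithelium. *Prlr* (ENSMUSG00000005268, 15:10177258-10349959, plus strand) encodes the prolactin receptor. *Slc4a5* (ENSMUSG00000068323, 6:83196810-83281927, plus strand) encodes an electrogenic sodium bicarbonate cotransporter. *Clic6* (ENSMUSG00000022949, 16:92282624-92338739, plus strand) belongs to the chloride intracellular channel family. *Otx2* (ENSMUSG00000021848, 14:48894099-48911276, minus strand) is the transcription factor of the set, and *Tmem72* (ENSMUSG00000048108, 6:116656024-116693884, minus strand) encodes a membrane protein of little known function. On either strand other genes overlap *Ttr*, *Folr1*, *Clic6*, *Otx2*, *Prlr* and *Sostdc1*, and the strandedness of the libraries is not given in the sources used here, so that some of their reads may belong to a neighbour.

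Most mice had low levels of the 9 genes, and a few had very high levels of all of them. *Ttr* was at 1.25 CPM in the lowest of the 200 mice, at 11.8 in the median mouse and at 2933 in the highest, 248 times the median. *Sostdc1* ran from 0.0585 through 0.987 to 32.9 CPM. *Kl* ran from 1.69 through 4.74 to 232 CPM. The top of each distribution was thus far from its middle for the secreted proteins. *Folr1* was listed at 0 in 8 mice, with a median of 0.325 and a highest value of 33.1 CPM. *Prlr* ran from 0.696 through 3.33 to 125.3 CPM. *Slc4a5* was at 0 in 21 mice, with a median of 0.211 and a highest value of 45.1 CPM, 214 times that median. The top was far from the middle in these genes too. *Clic6* ran from 0.342 through 6.13 to 148.3 CPM. *Otx2* was at 0 in 2 mice, with a median of 0.594 and a highest value of 19.7 CPM. *Tmem72* ran from 0.281 through 1.58 to 117.5 CPM. The ratio of highest to median was lowest for *Clic6*, at 24.2.

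A count of 0 allowed up to 3 counts, or 0.148 to 0.182 CPM of *Folr1*, 0.0640 to 0.156 of *Otx2* and 0.105 to 0.176 of *Slc4a5* in the mice concerned, limits that cover counting error only. *Ttr*, *Kl*, *Clic6* and *Prlr* had 10 counts or more in all 200 mice, and *Tmem72* in all but 6, *Sostdc1* in all but 12 and *Otx2* in all but 75. *Folr1* had that many in 69 mice and *Slc4a5* in 45. For *Folr1* and *Slc4a5*, levels below the median thus rest on a few reads. On the TPM scale, which also divides by transcript length, *Ttr* had the highest median level (23.1), ahead of *Clic6* (3.18), *Kl* (1.80) and *Sostdc1* (1.197). *Folr1* (0.944), *Otx2* (0.935) and *Prlr* (0.859) were close together, and *Tmem72* (0.184) and *Slc4a5* (0.0940) were lowest. The highest *Ttr* level was 5929 TPM.

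**Figure D1:**
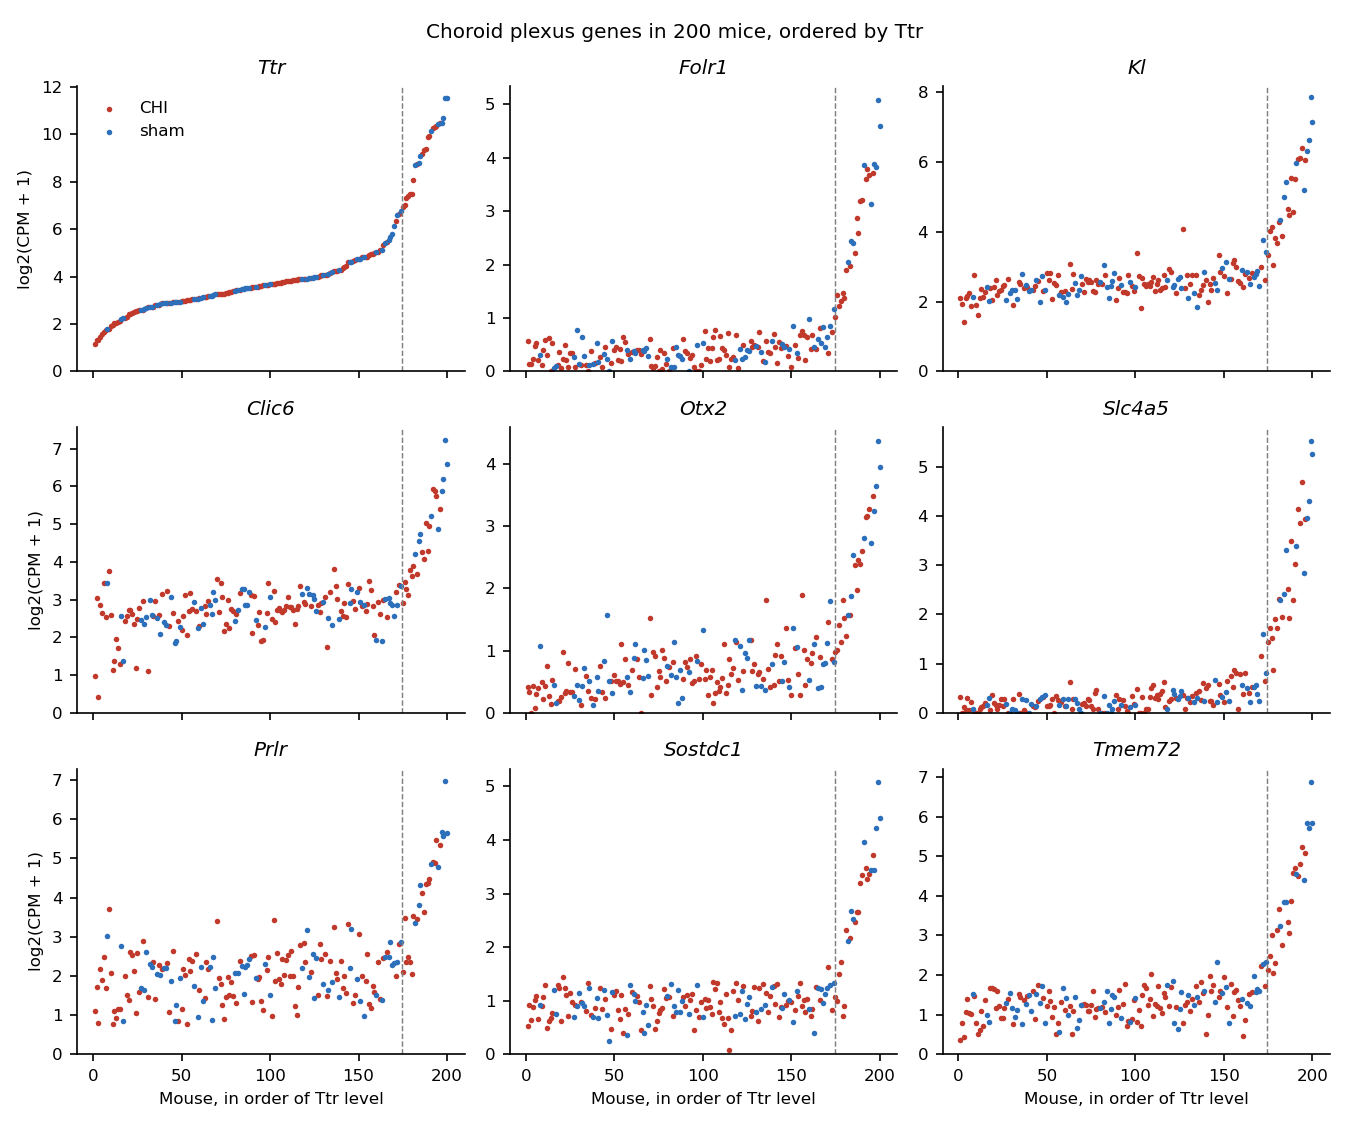
Level of each member in every mouse, as log2(CPM + 1), with the 200 mice in the same order of rising Ttr in each panel; red points are CHI mice, blue points sham mice, and the dashed line sets off the 26 mice with Ttr over 10 times its median. The order makes the Ttr panel rise throughout. The other genes turn upward over the same mice at the right, from a flatter course in the mice left of the line.

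This spread was wide beside that of other genes. The SD of log2(CPM + 1) around the means of the 24 groups was 2.21 for *Ttr*, which ranked 6 of 16264 genes with a mean of at least 10 counts, where the median gene had 0.195. *Tmem72* ranked 38 by the same measure, *Kl* 46, *Prlr* 50, *Slc4a5* 51, *Clic6* 57, *Folr1* 61, *Sostdc1* 92 and *Otx2* 110. All 9 members were therefore among the 110 most variable genes within groups. *Otx2*, *Folr1* and *Slc4a5* hold few counts in most mice, and counting error adds to their spread. *Folr1* and *Slc4a5* had medians of 7 and 4 counts, so their mean of at least 10 rests on the mice of higher counts. A wide spread of these 2 genes is thus partly built into the filter.

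In 26 mice (13%), *Ttr* was over 10 times the median of all mice, that is over 118.2 CPM. This line was drawn after the values were seen and crosses no gap, since the last mouse over it had 123 CPM and the next below had 106.3. Of the 26 mice of highest *Ttr*, 25 were also among the 26 highest for *Folr1* and 25 for *Slc4a5*. The same held for 24 mice in *Kl* and *Tmem72*, 22 in *Clic6* and *Sostdc1*, and 21 in *Otx2* and *Prlr*. The highest mice were thus largely the same mice for every member.

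The highest single mouse was a C57BL/6J sham mouse at 9 h, with 2933 CPM of *Ttr*, 140.9 of *Kl*, 96.2 of *Clic6*, 49.6 of *Prlr* and 37.4 of *Slc4a5*. An IL-1R1 eRestore sham mouse at 9 h had 2929 CPM of *Ttr* and the highest value of all 200 mice in the 8 other members, among them 232 CPM of *Kl* and 45.1 of *Slc4a5*. An IL-1R1 gKO sham mouse at 9 h followed with 1628 CPM of *Ttr* and 98.98 of *Kl*. All 3 were sham mice at 9 h, of 3 strains and 3 experiments. The next mice came from other groups, an IL-1R1 eRestore sham mouse at 24 h (1416 CPM) and a C57BL/6J CHI mouse at 72 h (1414 CPM).

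Within the 26 mice the proportion of each gene to *Ttr* varied less than *Ttr* itself. The highest proportion was 2.33 (*Folr1*) to 5.00 (*Kl*) times the lowest. For every 100 counts of *Ttr* there were 0.873 of *Folr1* in the median mouse (0.564 to 1.31 over the 26), 1.12 of *Slc4a5* (0.410 to 1.89) and 0.650 of *Otx2* (0.406 to 1.43). *Kl* had 5.59 (2.37 to 11.8), *Clic6* 4.52 (1.92 to 7.81) and *Prlr* 2.62 (1.69 to 7.88). *Tmem72* had 2.36 (1.16 to 4.41) and *Sostdc1* 0.827 (0.364 to 1.502). *Ttr* itself ran from 123 to 2933 CPM over the same mice, a far wider range than that of any of these proportions.

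Over all 200 mice, the 36 pairs of members correlated with a Pearson r of 0.757 (*Ttr* and *Prlr*) to 0.957 (*Folr1* and *Slc4a5*) on log2(CPM + 1), with a median of 0.870. Spearman's rho was lower, from 0.263 (*Slc4a5* and *Prlr*) to 0.708 (*Ttr* and *Slc4a5*), with a median of 0.454. Every pair had a permutation p of 1e-05 for r, the smallest that 100000 resamples can give, and the largest p for rho was 0.00025 both before and after Benjamini-Hochberg adjustment over the 36 pairs (permutation test, two-sided). Without the 2 mice farthest from the median of the first gene, r was 0.709 to 0.945. On residuals from the 24 group means it was 0.808 to 0.961. Within single experiments the median r over the pairs lay between 0.543 (nIL-1-60, 11 mice, none of high *Ttr*) and 0.941 (eIL-1-76), and r of single pairs between 0.0491 and 0.985.

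The relation was closer among the mice of high *Ttr* than among the rest. Among these 26 mice r was 0.863 to 0.984 (median 0.943), and among all other mice it was -0.038 to 0.626 (median 0.285). Splitting the mice by *Ttr* itself narrows its range in each part, so these values are a description. *Folr1*, *Slc4a5* and *Otx2* had medians of 7, 4 and 12 counts over all mice. The part of counting error in the lower r of the other mice was not tested. *Ttr* and *Slc4a5* kept the highest r in those other mice (0.626), and *Slc4a5* and *Prlr* the lowest. Points of all pairs share a library and its depth.

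**Figure D2:**
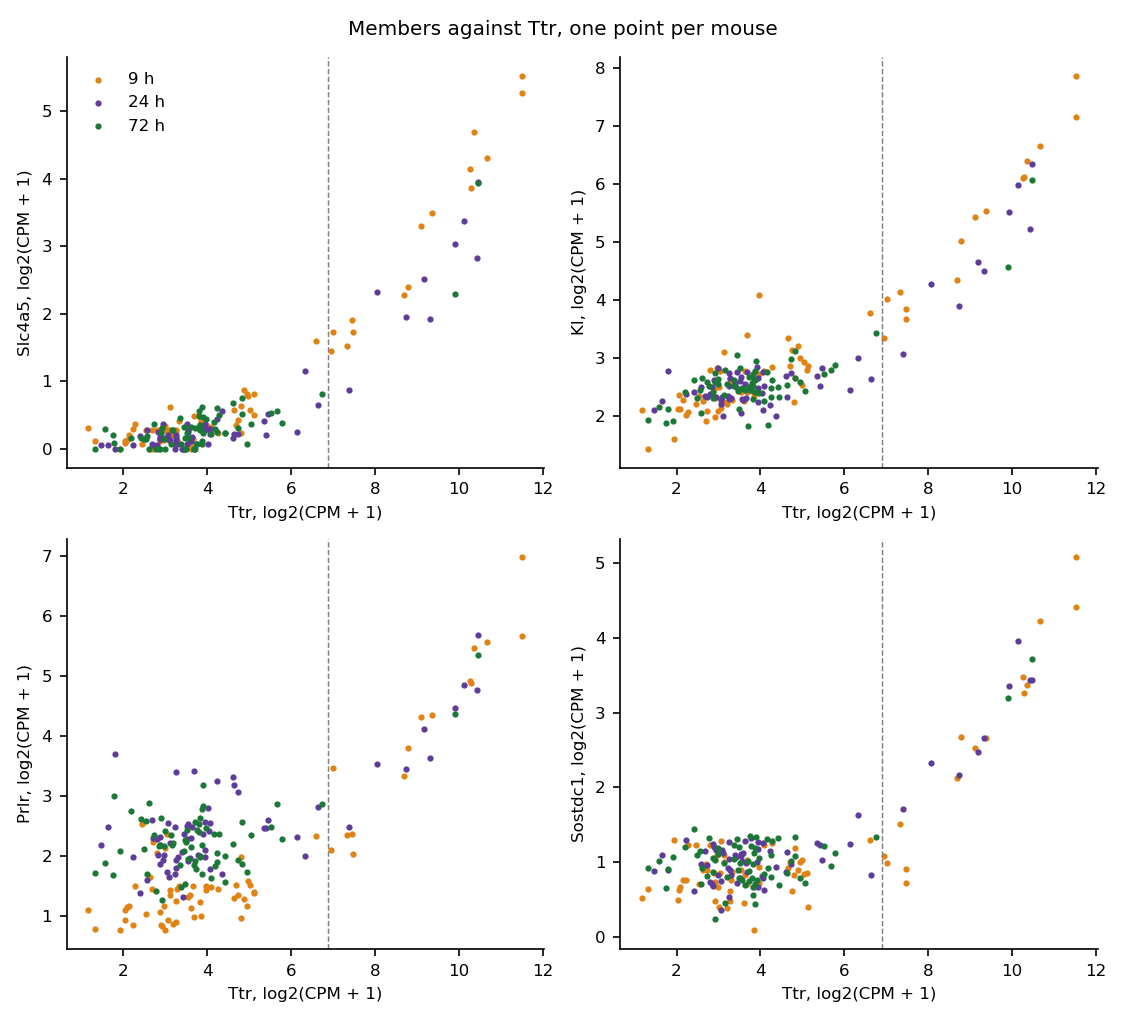
Slc4a5, Kl, Prlr and Sostdc1 against Ttr in each of the 200 mice, both axes log2(CPM + 1), coloured by time point, with the dashed line at 118.2 CPM of Ttr. All 4 genes rise with Ttr right of the line and are more scattered left of it, where Prlr of most 9 h mice lies below that of later mice.

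Other genes of the choroid plexus, on a list of 40 that excludes the members, followed the same mice. The mean of the list correlated with the mean of the 9 members at r = 0.956 and rho = 0.682 over 200 mice. Of its 40 genes, 35 had r over 0.5 and 23 over 0.8, from *Slc5a5* (0.0666) to *Kcne2* (0.969), a subunit of potassium channels. Among 16035 genes (10 or more counts in 100 or more mice), the 10 most like the mean of the members were *F5* (r = 0.957), *Ecrg4* (0.932), *Enpp2* (0.917), *Kcnj13* (0.910), *Drc7* (0.871), *Slc2a12* (0.866), *Col8a2* (0.861), *Lbp* (0.859), *Trpv4* (0.850) and *Abca4* (0.844). Of these, *Drc7* and *Abca4* stood on neither list. *F5* encodes coagulation factor V and *Enpp2* autotaxin, and 16 genes in all had r over 0.8.

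Markers of neighbouring tissue moved less with the members. The mean of 12 genes of ependymal cells, the ciliated cells that line the ventricles next to the choroid plexus, correlated with that of the members at r = 0.492 and rho = 0.327. For 12 genes of meningeal and perivascular fibroblasts r was 0.00787, for 5 of erythrocytes 0.0571, for 8 of the pituitary -0.0371, and for 12 of neurons, glia and endothelium -0.0669. Regional lists gave 0.0652 for the hypothalamus, 0.132 for the thalamus and habenula, 0.0993 for the olfactory bulb, -0.0141 for the striatum and -0.0295 for the cerebellum. By Spearman's rho the hypothalamus and thalamus lists were at 0.223 and 0.225. *Gh*, the growth hormone gene that defines the pituitary, was at 0 in 114 of the 200 mice. All lists were written with earlier results of these data known, and their values are descriptions over 200 mice that share library and depth.

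High *Ttr* occurred in both surgeries, in all strains and in both sexes. It was seen in 9 of 67 sham mice (13.4%) and 17 CHI mice (12.8%), in 13 of 102 female and 13 of 98 male mice, and in 10 of 61 C57BL/6J, 6 of 55 gKO, 6 of 50 eRestore and 4 of 34 nRestore mice. By time it was seen in 15 of 68 mice at 9 h, 9 of 65 at 24 h and 2 of 67 at 72 h. At 9 h the 15 comprised 9 of 46 CHI and 6 of 22 sham mice. Experiments ranged from 0 of 11 mice (nIL-1-60) to 5 of 18 (TM-2-33). These counts were not tested, since the line was set on the same values. In bulk tissue, more choroid plexus cells and more RNA of these genes per cell cannot be told apart.

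**Figure D3:**
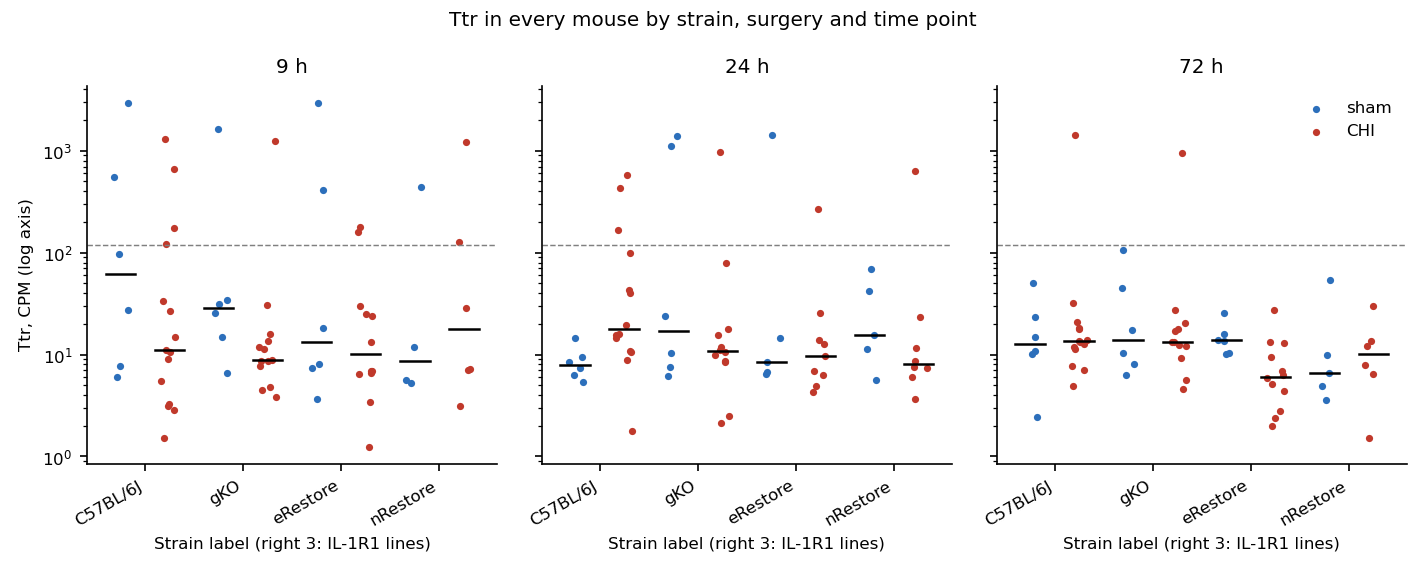
Ttr in every mouse in CPM on a log axis, by time point (panels), strain and surgery (red CHI, blue sham); black bars are medians and the dashed line is 118.2 CPM. Mice above the line are scattered over most groups at 9 and 24 h, and 2 of 67 mice lie above it at 72 h.

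The injury comparison of the study was CHI against sham in C57BL/6J mice at each time point. At 9 h, *Ttr* was at 1.52 to 1318 CPM in 15 CHI mice (median 11.2) and at 5.96 to 2933 in 6 sham mice (median 62.0), and the groups overlapped over most of their range. All 9 members had lower fitted values after CHI, from *Ttr* (log2 fold change -3.28 ± 1.24 SE, adjusted p = 0.0890, edgeR quasi-likelihood test) to *Kl* (-1.46 ± 0.83, adjusted p = 0.270). None of the 9 passed the threshold of 0.05, beside 14.1% of all genes tested, and 3 of them (*Ttr*, *Sostdc1* and *Slc4a5*) had an unadjusted p under 0.05. With DESeq2 and its own size factors 4 passed (*Ttr*, *Slc4a5*, *Sostdc1* and *Tmem72*), and with gene-length offsets 2 (*Ttr* and *Sostdc1*). The share of all genes called by either form of DESeq2 is not given here, so these counts have no background.

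At 24 h the order was turned. *Ttr* was at 1.77 to 580 CPM in 14 CHI mice (median 17.8) and at 5.43 to 14.4 in 6 sham mice (median 7.87), none of which was high in *Ttr*. The 7 members that passed the filter on low counts had higher fitted values after CHI, *Ttr* by 3.45 ± 1.28 (adjusted p = 0.408) and *Tmem72* by 1.45 ± 0.55 (adjusted p = 0.417), and none passed the edgeR test, beside 0.404% of all genes. Of the 7, 3 (*Ttr*, *Tmem72* and *Otx2*) had an unadjusted p under 0.05, and DESeq2, which gave an adjusted p for 5 of the 7, called none. With no filter beyond 1 count in total, edgeR called 7, and the share of all genes under that filter is not given here. At 72 h, *Ttr* was at 4.87 to 1414 CPM in 14 CHI mice (median 13.5) and at 2.46 to 50.2 in 6 sham mice (median 12.7). No member of 8 tested passed at 72 h by edgeR or DESeq2, where 0% of all genes passed by edgeR, and none had an unadjusted p under 0.05.

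The difference between these time points was tested as an interaction over all 61 C57BL/6J mice. The CHI effect on *Ttr* at 24 h exceeded that at 9 h by 6.88 ± 2.00 on the log2 scale (edgeR, adjusted p = 0.0298), and *Ttr* was the only one of the 9 members to pass, beside 5.05% of all genes called and 2.34% called higher. All 9 had a positive difference with an unadjusted p under 0.05. Without the mice of high *Ttr*, the difference was 2.77 for *Ttr* (adjusted p = 0.0685) and 1.76 for *Tmem72* (edgeR, adjusted p = 0.0283), beside 4.19% of genes. Mice were left out here by *Ttr* itself, with which the other members correlate, so these values are a description. Between 72 and 9 h no member passed (3 had an unadjusted p under 0.05), beside 6.92% of all genes, and *Ttr* differed by 3.51 ± 1.80 (adjusted p = 0.271). Because 9 h and later mice came from different experiments, time and experiment cannot be told apart here.

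Taking the 4 strains in one fit at 9 h, with 46 CHI and 22 sham mice, all 9 members fell after CHI. *Ttr* ran from 1.25 through 10.9 to 1318 CPM in CHI mice and from 3.70 through 22.0 to 2933 in sham mice (lowest, median, highest). *Sostdc1* ran from 0.0585 through 0.812 to 10.1 CPM after CHI and from 0.307 through 1.13 to 32.9 after sham surgery. *Kl* ran from 1.69 through 4.95 to 83.2 and from 2.93 through 6.03 to 232. In each of these genes the ranges overlapped almost wholly, with the sham median and the highest sham mouse above those of CHI. *Folr1* had medians of 0.430 and 0.461 CPM, *Prlr* of 1.60 and 1.84, and *Clic6* of 4.77 and 5.69 (CHI first). *Otx2* had medians of 0.754 and 1.15, and *Tmem72* of 1.28 and 1.79. *Slc4a5* had a median of 0.267 after CHI and 0.244 after sham surgery, so that its median was the only one not lower after CHI.

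The fitted log2 fold change was -2.78 ± 0.85 for *Ttr* (adjusted p = 0.0107), -1.59 ± 0.43 for *Sostdc1* (0.00376), -1.96 ± 0.55 for *Tmem72* (0.00545), -2.001 ± 0.61 for *Folr1* (0.0103) and -1.46 ± 0.45 for *Otx2* (0.0113), by edgeR. For *Prlr* it was -1.69 ± 0.54 (adjusted p = 0.0142), for *Clic6* -1.39 ± 0.45 (0.0152), for *Slc4a5* -2.21 ± 0.72 (0.0166) and for *Kl* -1.44 ± 0.47 (0.0177). All 9 were called, beside 26.5% of all genes tested in either direction and 13.8% called lower. On the list of other choroid plexus genes, 33 were tested, of which 19 fell and 1 rose, with a median log2 fold change of -0.77 beside -0.01 over all genes. Without the mice of high *Ttr*, 3 of 29 fell and 4 rose (median -0.07). With the mean log2(CPM + 1) of the list itself as a covariate 3 of 33 fell and 4 rose (median -0.05). That covariate takes out the shared shift of these genes by construction, so its counts are no second check. In the fit of all mice without the covariate, the 6 of smallest p were *Slc5a5*, the thyroid type iodide transporter, which rose by 0.26, and *Rdh5* (-1.09), *Slc13a4* (-1.56), *Igf2* (-1.02), *Ecrg4* (-1.82) and *Kcnj13* (-2.31), which fell.

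These calls depended on single sham mice. Without the C57BL/6J sham mouse of highest *Ttr* (replicate 4), no member was called and *Ttr* stood at -1.80. Without the IL-1R1 eRestore sham mouse next to it (replicate 3), 1 member was called (*Sostdc1*, -0.96, adjusted p = 0.0476, edgeR) and *Ttr* stood at -1.73. Without both, none was called and *Ttr* stood at -0.95, whereas without the third (IL-1R1 gKO, replicate 2) all 9 were called. Without the 15 mice of high *Ttr*, 8 members could be tested and none was called, beside 18.2% of all genes, with *Ttr* at -0.63 (adjusted p = 0.211), *Tmem72* at -0.47 (adjusted p = 0.0953) and *Kl* at -0.01. This omission cuts on the level of *Ttr* itself, so its values describe the remaining mice. With the mean log2(CPM + 1) of the other choroid plexus genes as a covariate none was called.

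**Figure D4:**
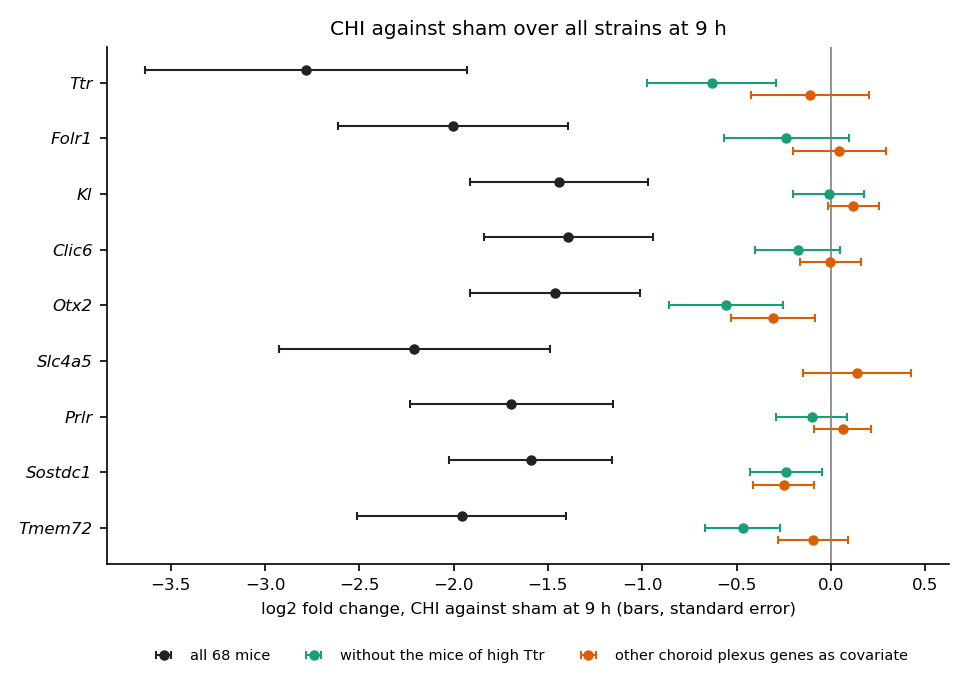
Log2 fold change of each member, CHI against sham over all strains at 9 h, with its standard error, in all 68 mice (black), without the 15 mice of high Ttr (green) and with the other choroid plexus genes as a covariate (orange). Black points lie between -2.78 and -1.39, green points between -0.63 and -0.01, and orange points between -0.31 and 0.14.

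Within each experiment at 9 h, the mean log2(CPM + 1) of all 9 members was lower in CHI than in sham mice. The differences were -0.73 to -0.12 in TM-2-33 (12 CHI and 6 sham mice), -2.01 to -0.70 in eIL-1-76 (22 and 9) and -0.50 to -0.26 in eIL-1-80 (12 and 7). Each experiment held 1 of the 3 sham mice of highest *Ttr*, and without that mouse 8 of the 9 differences turned positive in TM-2-33 (*Ttr* 0.32) and in eIL-1-80 (*Ttr* 0.62), whereas all 9 stayed negative in eIL-1-76 (*Ttr* -1.32). Without all mice of high *Ttr*, 6, 9 and 7 of the 9 were negative in TM-2-33, eIL-1-76 and eIL-1-80, with *Ttr* at -0.08, -0.91 and -0.30. In eIL-1-76 alone, *Ttr* differed by -3.49 ± 1.39 in the fit (adjusted p = 0.119, edgeR) and no member was called. Beside the fall of the members at 9 h, the summed level of the 12 ependymal markers had a median of 17.7 CPM (8.92 to 32.3) after CHI and 20.2 (12.1 to 42.1) after sham surgery. Erythrocyte genes summed to a median of 31.5 CPM (0.595 to 291) after CHI and 4.55 (0.529 to 137.5) after sham surgery, fibroblast genes to 114.3 and 107.2, striatal genes to 324 and 396, cerebellar genes to 135.4 and 170.1, and the markers of neurons, glia and endothelium to 9880 and 9852. In the same edgeR fit, 3 of 12 ependymal genes, 6 of 12 fibroblast genes, 4 of 7 striatal genes and 2 of 4 cerebellar genes tested fell, 2 fibroblast genes rose, and none of 5 erythrocyte genes passed. Of the 12 genes of neurons, glia and endothelium 4 rose and 1 fell. Without the mice of high *Ttr*, none of the ependymal, 6 fibroblast, 3 striatal and 2 cerebellar genes fell. The part of these cell types in the result was not tested.

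In the single fits of the other strains no member was called in any of the 9 comparisons of CHI with sham, by edgeR. Of all genes, 0.199%, 0.0059% and 0% were called in gKO mice at 9, 24 and 72 h, 7.34%, 0% and 0.00605% in eRestore and 0.608%, 0% and 0.0121% in nRestore mice. Unadjusted, 7 members had a p under 0.05 in IL-1R1 eRestore mice at 9 h, 4 in IL-1R1 gKO mice at 24 h, 1 in eRestore and 1 in nRestore mice at 72 h, and none in the other 5. At 9 h, IL-1R1 eRestore mice had a *Ttr* log2 fold change of -4.79 ± 2.08 (adjusted p = 0.163), with 177.03 CPM in the highest of 12 CHI mice and 2929 in the highest of 6 sham mice. With DESeq2, 8 members were called in this comparison and none in the other 8. The share of all genes called by DESeq2 is not given here, so the count has no background. IL-1R1 nRestore mice at 9 h had higher fitted values of all 9 members after CHI (*Ttr* 1.36). Their 4 sham mice ran from 5.23 through 8.66 (median) to 440 CPM of *Ttr*, and the 6 CHI mice from 3.14 through 17.9 to 1232, so that the groups overlapped. IL-1R1 gKO mice at 24 h had a *Ttr* log2 fold change of -4.81 ± 2.00 (adjusted p = 0.490), opposite in sign to that of C57BL/6J mice at that time. No member passed the edgeR test of a CHI effect that differs between a strain and C57BL/6J at any time point, beside 0%, 0.0107% and 0.00534% of genes at 9 h, 0.00541%, 0.0108% and 0% at 24 h, and 0%, 0% and 0.00543% at 72 h (gKO, eRestore and nRestore). Unadjusted, 7 of 9 members had a p under 0.05 in gKO and 7 in eRestore mice at 24 h, and 2 in nRestore mice at 9 h, and the strains share the C57BL/6J mice in these tests. At 9 h nRestore and C57BL/6J mice shared no experiment, so strain and experiment cannot be told apart in that comparison.

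In single fits over all strains, no member was called after CHI at 24 h (of 7 tested, beside 1.96% of genes) or at 72 h (of 7 tested, beside 0.717%). None had an unadjusted p under 0.05 and DESeq2 called none at either time. Mice of high *Ttr* were 6 of 43 CHI and 3 of 22 sham mice at 24 h, and 2 of 44 and 0 of 23 at 72 h, and their part in these values was not tested.

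Strains were compared with C57BL/6J mice at each time point, CHI and sham mice together; the 3 strain contrasts of a time point share the C57BL/6J mice. At 24 h, 3 of 8 members tested rose in IL-1R1 gKO mice, beside 16.5% of genes called and 7.7% called higher. *Clic6* had medians of 9.07 CPM (5.33 to 29.8) in gKO CHI and 7.47 (3.26 to 36.3) in gKO sham mice, and 6.99 (3.97 to 18.2) and 5.73 (4.04 to 8.22) in the C57BL/6J groups. These ranges overlapped, and the fitted difference was 0.79 ± 0.26 (edgeR, adjusted p = 0.0265). *Tmem72* was higher by 1.45 ± 0.51 (adjusted p = 0.0408) and *Prlr* by 0.95 ± 0.34 (adjusted p = 0.0465). Without the mice of high *Ttr* none of the 3 was called (*Clic6* 0.37, adjusted p = 0.0580, edgeR), beside 12.8% of genes, nor with the experiment in place of age.

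At 72 h, when 2 mice were high in *Ttr*, fitted levels of *Otx2* and *Folr1* were lower in IL-1R1 eRestore and in IL-1R1 nRestore mice than in C57BL/6J mice. *Otx2* had medians of 0.560 CPM (0.223 to 10.3) in C57BL/6J CHI and 0.647 (0.432 to 1.26) in C57BL/6J sham mice. In nRestore mice its medians were 0.309 (0 to 0.538) and 0.425 (0.207 to 0.740), and in eRestore mice 0.291 (0.0565 to 0.977) and 0.728 (0.117 to 1.26). The eRestore sham median thus lay above that of C57BL/6J sham mice. The fitted difference from C57BL/6J was -2.05 ± 0.48 in nRestore (edgeR, adjusted p = 0.00390) and -1.10 ± 0.38 in eRestore mice (adjusted p = 0.0366). For *Folr1* it was -2.59 ± 0.70 in nRestore (adjusted p = 0.0171) and -1.69 ± 0.57 in eRestore mice (adjusted p = 0.0314). *Folr1* medians were at most 0.340 CPM in these 6 groups, so these differences rest on few reads. *Prlr* was called in nRestore mice alone (-1.10 ± 0.33, adjusted p = 0.0379), so that 3 of 8 members fell in nRestore (beside 4.27% of genes called and 2.62% called lower) and 2 of 8 in eRestore mice (beside 16.2% and 7.79%). Without the mice of high *Ttr*, of which C57BL/6J CHI mice held 1, *Otx2* in nRestore mice (-1.18, adjusted p = 0.0300) was the only call that remained, beside 3.65% of genes in nRestore and 18.3% in eRestore mice. With the experiment in place of age no member was called in nRestore mice, and *Folr1* and *Ttr* were called in eRestore mice. In the other 6 strain contrasts edgeR called no member (unadjusted p under 0.05 for 3 in gKO mice at 9 h and 1 in eRestore mice at 24 h), where 14.4% (gKO), 13.5% (eRestore) and 11.7% (nRestore) of genes were called at 9 h, 21.7% (eRestore) and 23.6% (nRestore) at 24 h, and 6.79% (gKO) at 72 h.

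Over the 200 mice, members were lower at later times, and this turned for some of them once the mice of high *Ttr* were left out. From 9 to 24 h, 5 of the 8 members tested fell, beside 75% of all genes called and 35.7% called lower: *Kl* (log2 fold change -1.01 ± 0.25, adjusted p = 0.000139, edgeR), *Otx2* (-0.83), *Folr1* (-0.96), *Tmem72* (-0.82) and *Clic6* (-0.48, adjusted p = 0.0333). From 9 to 72 h all 8 fell, from *Ttr* (-2.20 ± 0.53, adjusted p = 9.2e-05) to *Prlr* (-0.63 ± 0.26, adjusted p = 0.0260), beside 74.9% of genes called and 35.8% called lower. Between 24 and 72 h none of the 8 was called and 3 had an unadjusted p under 0.05, beside 5.72% of genes called. The medians did not follow the same course: *Ttr* had 11.8, 11.0 and 12.2 CPM at 9, 24 and 72 h, *Kl* 5.44, 4.62 and 4.69, *Clic6* 5.07, 6.99 and 6.03, and *Prlr* 1.73, 4.15 and 3.57. Thus the median mouse had more *Prlr* and *Clic6* at 24 h than at 9 h, while the fitted values over all mice were lower. For *Prlr* that fitted fall at 24 h was not called.

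Without the 26 mice of high *Ttr*, *Prlr* ran from 0.696 through 1.499 to 4.79 CPM at 9 h, from 1.49 through 3.89 to 12.1 at 24 h and from 1.40 through 3.57 to 8.06 at 72 h. *Clic6* ran from 0.342 through 4.11 to 10.2 CPM at 9 h, from 3.26 through 6.67 to 13.0 at 24 h and from 2.74 through 5.98 to 9.80 at 72 h. In both genes the later medians lay above the 9 h median, with ranges that overlapped. The fitted difference from 9 to 24 h was then 1.25 ± 0.12 for *Prlr* (edgeR, adjusted p = 1.48e-19) and 0.57 ± 0.10 for *Clic6* (adjusted p = 5.35e-07), and from 9 to 72 h it was 1.08 ± 0.12 (adjusted p = 5.96e-16) and 0.42 ± 0.10 (adjusted p = 0.000119). *Kl* stayed lower at 24 h (-0.25, adjusted p = 0.00416) and *Otx2* at 72 h (-0.68, adjusted p = 0.000243), and *Ttr* differed by 0.14 at 24 h (adjusted p = 0.566). Since the mice were left out by *Ttr*, with which the members correlate, these p-values are descriptive. Of all genes, 73.3% were called between 24 and 9 h and 73.5% between 72 and 9 h in these mice. Marker lists of other tissue moved as well. From 9 to 24 h, 7 of 7 striatal genes rose, 11 of 12 fibroblast genes rose and 1 fell, and 4 of 4 erythrocyte genes tested fell. Of 12 ependymal genes 2 rose and 2 fell, and of 12 genes of neurons, glia and endothelium 4 rose and 6 fell. The part of tissue content in the rise of *Prlr* and *Clic6* was not tested.

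With the other choroid plexus genes as a covariate and all 200 mice kept, *Prlr* was higher by 0.63 at 24 h (edgeR, adjusted p = 1.74e-08) and by 0.50 at 72 h (adjusted p = 1.02e-05), whereas *Clic6* differed by 0.07 at 24 h. *Prlr* was thus the member whose direction over time turned under both ways of allowing for high mice, at 24 and at 72 h. Over all mice without the covariate its fall was called at 72 h and not at 24 h. The turn at 24 h therefore starts from a difference that did not pass the test. Shares of all genes called with the covariate are not given here. On the list of other choroid plexus genes, 16 of 30 tested fell and 6 rose from 9 to 24 h, and 19 fell and 5 rose from 9 to 72 h. Without the mice of high *Ttr* the balance turned, with 6 of 28 lower and 15 higher at each of the later times. With the covariate, which is the mean of this list, 16 of 30 fell and 11 rose at 24 h, and 15 fell and 10 rose at 72 h. A covariate made of the same genes takes out their shared shift by construction, so these counts are no second check. Mice at 9 h were of other experiments and another time of day than later mice, and these cannot be told apart from time after surgery.

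**Figure D5:**
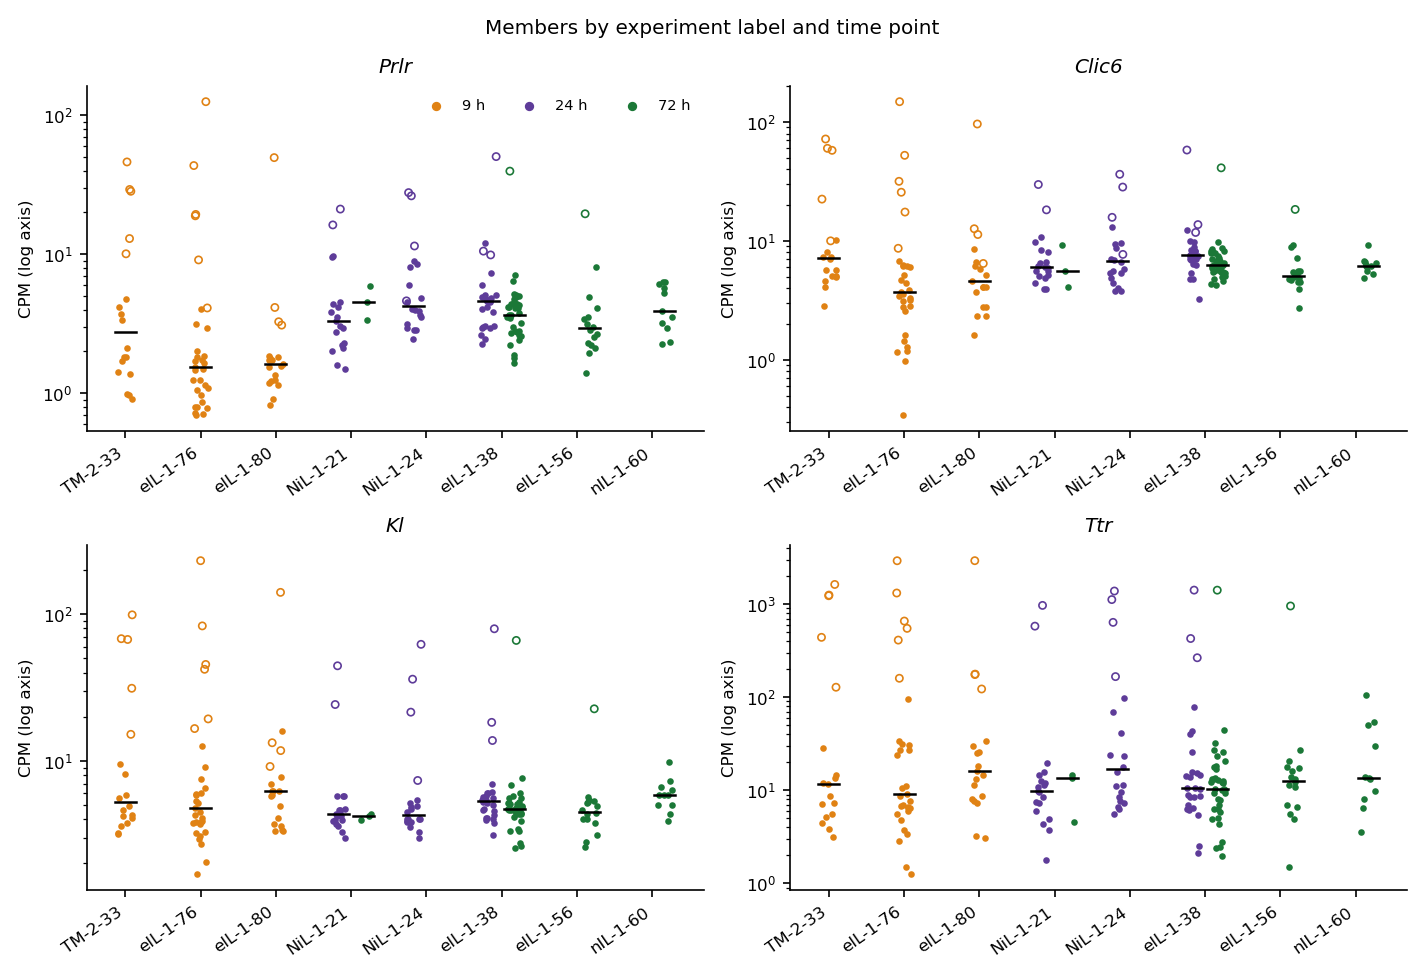
Prlr, Clic6, Kl and Ttr in CPM on log axes for each of the 8 experiment labels, coloured by time point; filled points are mice of low and open points mice of high Ttr, and bars are medians. Prlr medians of the 3 experiments at 9 h lie below those of the 5 later experiments, and open points stand mostly at the top of each panel.

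Experiment labels were also compared within a time point. At 9 h, 7 of the 9 members differed among the 3 experiments (edgeR joint test), all but *Kl* (adjusted p = 0.0752) and *Otx2* (adjusted p = 0.143), beside 50.9% of genes, and none did without the mice of high *Ttr*, beside 46.4%. At 24 h, 1 of 8 differed (*Ttr*, adjusted p = 0.0316), beside 36.7%, and at 72 h none of 9, also unadjusted, beside 15.7%. Female and male mice did not pass the edgeR test in any of 7 members, nor at an unadjusted p under 0.05, beside 0.534% of genes, with a *Ttr* difference of -0.71 ± 0.55 (female against male, adjusted p = 0.661).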

How the data were processed

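One hemisphere per mouse was sequenced from poly(A)-selected libraries (paired-end). The authors trimmed the reads and ran STAR alignment against GRCm39 followed by Salmon quantification. They deposited estimated counts per gene, not normalized for depth or length (10.8% of values were not whole), and TPM values, scaled per library for transcript length and depth. Groups, sex, age and experiment came from the sample labels, which show each mouse as a separate animal; no 2 libraries of a group agreed within sampling noise (lowest chi-square per degree of freedom 4.65 over 879 pairs). Gene positions came from GENCODE vM39, which held 98.9% of the gene identifiers, and promoter windows from RefSeq (GRCm38.p6).

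Estimated counts were rounded and tested with edgeR 4.0.16 in R 4.3.3 (TMM factors, robust quasi-likelihood F test, Benjamini-Hochberg over all genes tested, threshold 0.05), after dropping genes that reached 10 counts in fewer mice than the smallest group of the comparison. Standard errors were derived from the F statistics. Covariates were sex and age, with strain or surgery in fits over all strains; time and experiment comparisons had no age term, since age follows them. The fit was tested on simulated data. Alternatives were DESeq2 1.42.0 (own size factors, or gene-length offsets derived from both tables), other filters, scalings and covariates, subsets of mice and, chosen after seeing the data, the omission of mice of high *Ttr*. That omission selects mice by the level of a member, so all results after it are descriptions of the remaining mice. Shares of all genes called are given for the main fits and some fits after that omission, not for the other alternatives. CPM are counts scaled to a library's total, and log2 values add 1 to CPM. Correlations used Python 3.11.15 with scipy 1.17.1.

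The 9 members, the marker lists and the tests were chosen with earlier results of these data known. Named genes are the members, at most 6 of the other choroid plexus genes a comparison called (by p), the 10 genes most like the members' mean, and *Il1r1*. Reads carry no molecular identifiers, so counts are not independent molecules.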

Additional observations from a re-analysis of the deposited data

Results flagged for a closer look

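In groups of 4 to 10 mice, the highest or lowest mouse was set apart from the others by Dixon's criterion in 44 combinations of member and group, in 10 groups and 1 mouse in each; chance flags about 1 in 20 groups, and the members share their high mice. All values below are CPM.

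At 9 h, IL-1R1 gKO sham mouse 2 was set apart in all 9 members, with *Ttr* at 1628, *Kl* at 98.98, *Clic6* at 72.0, *Tmem72* at 51.4, *Prlr* at 46.2, *Slc4a5* at 18.8, *Sostdc1* at 17.7, *Folr1* at 13.2 and *Otx2* at 11.6. IL-1R1 eRestore sham mouse 3 was set apart in *Sostdc1* (32.9) and *Otx2* (19.7), the highest values of both genes in the series. In IL-1R1 nRestore mice, sham mouse 1 had *Ttr* at 440, *Kl* at 31.3, *Tmem72* at 13.4, *Sostdc1* at 5.39 and *Slc4a5* at 4.29. CHI mouse 1 of that strain had *Folr1* at 11.2 and *Sostdc1* at 10.1.

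At 24 h, IL-1R1 eRestore sham mouse 1 was set apart in all 9 members, with *Ttr* at 1416, *Kl* at 79.5, *Clic6* at 58.1, *Tmem72* at 56.2, *Prlr* at 50.5, *Slc4a5* at 14.5, *Folr1* at 13.9, *Sostdc1* at 9.87 and *Otx2* at 8.51. IL-1R1 eRestore CHI mouse 6 had *Ttr* at 266, *Kl* at 18.3, *Tmem72* at 11.7, *Slc4a5* at 3.99, *Sostdc1* at 3.99, *Folr1* at 2.73 and *Otx2* at 1.37. IL-1R1 nRestore CHI mouse 6 had *Ttr* at 637, *Kl* at 21.5, *Tmem72* at 7.37, *Folr1* at 6.35, *Sostdc1* at 5.33, *Otx2* at 2.95 and *Slc4a5* at 2.79. IL-1R1 nRestore sham mouse 3 was the lowest of its group in *Prlr* (2.45).

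At 72 h, IL-1R1 gKO sham mouse 6 was the highest of its group in *Folr1* (1.24), and IL-1R1 nRestore CHI mouse 6 the lowest of its group in *Kl* (2.81). The effect of CHI on *Ttr* in C57BL/6J mice differed between 24 and 9 h by 6.88 on the log2 scale (edgeR, adjusted p = 0.0298), as tested by an interaction term.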

How the results depend on the processing

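Of the counts of members called and the median correlation, 229 values under an alternative stayed close to those reported and 38 did not. Of the log2 fold changes of single members 231 kept direction and side of the threshold, 77 lost it, 9 gained it and 17 turned. The values that moved or turned are given here, and their causes were not tested. Except for some fits without the mice of high *Ttr*, shares of all genes called under the alternatives are not given. The counts below therefore describe how the calls depend on processing, and are no results about the members. For CHI against sham in C57BL/6J mice at 9 h, the count of 0 became 4 with DESeq2, 2 with DESeq2 and gene-length offsets, and 1 in one fit of all C57BL/6J mice (*Sostdc1*). At 24 h it became 7 with a filter of 1 count in total. In IL-1R1 eRestore mice at 9 h the 0 became 8 with either form of DESeq2 and 4 with no sex or age term, and in IL-1R1 nRestore mice at 9 h it became 6 with a filter of 1 count in total. Over all strains at 9 h, the 9 became 4 with 10 counts required in every mouse (4 members tested), and 0 with the other choroid plexus genes as covariate, without the mice of high *Ttr*, and in the largest experiment alone; leaving out sham mice of highest *Ttr* gave 0 to 9. Leaving out each sham mouse of the groups of 4 or 5 in turn gave 0 calls throughout.

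For strains against C57BL/6J, the 3 calls in gKO mice at 24 h became 1 with a filter of 1 count in total and 0 with the covariate, without mice of high *Ttr* and with the experiment in place of age. The 2 calls in eRestore mice at 72 h became 0 with a filter of 1 count in total, with 10 counts in every mouse, with the covariate and without mice of high *Ttr*. The 3 in nRestore mice at 72 h became 1 with 10 counts in every mouse, with the covariate and without mice of high *Ttr*, and 0 with the experiment in place of age. With the covariate, 1 member was called in eRestore mice at 9 h (*Prlr*, -0.53) and 1 at 24 h (*Folr1*, -1.04). Among experiments, the 7 at 9 h became 0 and the 0 at 72 h became 1 without mice of high *Ttr*. Of 24 against 9 h the 5 calls became 2 with 10 counts in every mouse, and of 72 against 9 h the 8 became 4 with that filter and 5 without mice of high *Ttr*.

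With the covariate, log2 fold changes after CHI at 9 h turned to 0.21 for *Folr1* in C57BL/6J mice, and over all strains to 0.045 for *Folr1*, 0.063 for *Prlr*, 0.12 for *Kl* and 0.14 for *Slc4a5*. Between 24 and 9 h they turned to 0.63 for *Prlr* and 0.073 for *Clic6* with the covariate, and without mice of high *Ttr* to 1.25 for *Prlr*, 0.57 for *Clic6*, 0.25 for *Sostdc1*, 0.27 for *Tmem72* and 0.14 for *Ttr*. Between 72 and 9 h they turned to 0.50 for *Prlr* with the covariate, and without mice of high *Ttr* to 1.08 for *Prlr*, 0.42 for *Clic6*, 0.20 for *Sostdc1* and 0.31 for *Tmem72*. The median correlation of the 36 pairs, 0.870, lay between 0.543 and 0.941 within single experiments, and was 0.943 in the mice of high *Ttr* and 0.285 in the others.

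No paired analysis was possible because the labels carry no replicate numbers that groups share. Of the members, *Folr1* and *Slc4a5* had under 10 counts in most mice, so that at this depth differences between mice near their median are not detectable.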
